A study of Mus musculus with 9 samples.

Results

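Imprinted genes are expressed mainly from the chromosome inherited from 1 parent, and 34 of them, listed by symbol with earlier results of these data known, were followed in cultured fetal mouse ovaries. All 34 were among the 23420 genes of the count tables. Of these, 22 are known as expressed from the paternal allele and 11 from the maternal allele, and Gnas makes transcripts of both kinds. The ovaries came from wild-type CD1 embryos at embryonic day 16. They were kept for 24 hours on culture inserts in phenol red-free α-MEM supplemented with insulin, transferrin, selenium and linoleic acid, with vehicle, with recombinant human BMP2 (50 ng/ml) or with estradiol-17β (E2, 3.67 µM). Each of the 3 groups held 3 libraries, and read counts per gene were deposited. The treatment of a library was read from the prefix of its title, with C taken as vehicle and B2 as BMP2, since no other label states it. Whole ovaries were used, so each value is an average over germ cells, pregranulosa cells and all other cells.

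Most imprinted genes lie in clusters, where a stretch of DNA methylated on 1 parental chromosome, and often a long non-coding RNA, sets which copy is read. Several of them govern fetal growth: Igf2 encodes a growth factor, Igf2r the receptor that removes it, Grb10 an adaptor that dampens insulin and IGF receptor signalling, and Cdkn1c an inhibitor of the cell cycle. In female germ cells the parental marks are erased in the fetus and are set again only while oocytes grow after birth, whereas the somatic cells of the ovary keep them. The counts do not tell the alleles apart, so the parental allele given beside a gene is background knowledge and was not measured here.

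Gene totals ran from 30418674 to 34320077 counts per library, and the members took 0.825% to 0.970% of them. H19 alone took 0.298% to 0.312% with vehicle or BMP2 and 0.202% to 0.206% with E2. It ranked 4 among all genes by count in each vehicle and BMP2 library and 11 in each E2 library. Germ cell markers (6, among them Ddx4 and Dazl) and pregranulosa markers (6, among them Foxl2 and Wnt4) were all detected. Separate animals or cultures are not named for the libraries of a group, so p-values here measure a spread between libraries that may be technical.

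Several members carry microRNAs on their own strand. Those of H19, Igf2 and Mest, which fell with E2, are shown. Meg3 and Usp29, which rose with E2, and Rian and Rtl1, which did not pass, also hold microRNAs, which are not printed here. Gene models were taken from GENCODE vM21 and microRNA positions from the RefSeq table for GRCm38.p6. H19 (chr7:142575529-142578143, minus strand, a long intergenic non-coding RNA) holds miR-675 within an exon. Igf2 (chr7:142650766-142666816, minus strand) holds miR-483 in an intron, and Mest (chr6:30723547-30748465, plus strand) holds miR-335 in an intron. The mature sequences follow with the seed, bases 2 to 8, in capitals. Mature microRNAs were not measured by these libraries.
mmu-miR-675-5p: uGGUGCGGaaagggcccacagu
mmu-miR-675-3p: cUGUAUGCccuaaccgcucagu
mmu-miR-483-5p: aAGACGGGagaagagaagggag
mmu-miR-483-3p: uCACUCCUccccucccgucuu
mmu-miR-335-5p: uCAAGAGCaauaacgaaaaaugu
mmu-miR-335-3p: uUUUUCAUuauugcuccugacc

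Levels per length of exon (mean CPM, the usual library-size-scaled read count, divided by the kb of annotated exon) spanned a wide range with vehicle. H19 stood highest at 1219 CPM per kb, followed by Mest at 199, Igf2 at 159, Peg3 at 105, Peg10 at 65.2, Gnas at 63.9 and Nnat at 51.1. Grb10 (46.5), Igf2r (39.7), Ndn (35.2), Dlk1 (20.4), Zim1 (20.1) and Slc38a4 (18.6) came next. At the low end on this scale were Rtl1 at 0.234, Ascl2 at 0.102 and Snrpn at 0.0328 CPM per kb. Snrpn had 0 to 4 counts per library. Its exons share 10% of their bases with Snurf on the same strand and 34.1% with other genes in all, and Snurf itself had 0 to 2 counts. The count tables hold a row of ambiguous reads (0.693% to 0.727% of a library), and whether reads of Snrpn fell there was not tested. Airn at 2.44 and Kcnq1ot1 at 1.11 CPM per kb are long RNAs, and the 93092 annotated exon bases of Kcnq1ot1 enter its value. Annotated exon length includes every known isoform, so the order of neighbours such as Dlk1 and Zim1 depends on the annotation as well as on the counts.

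**Figure D1:**
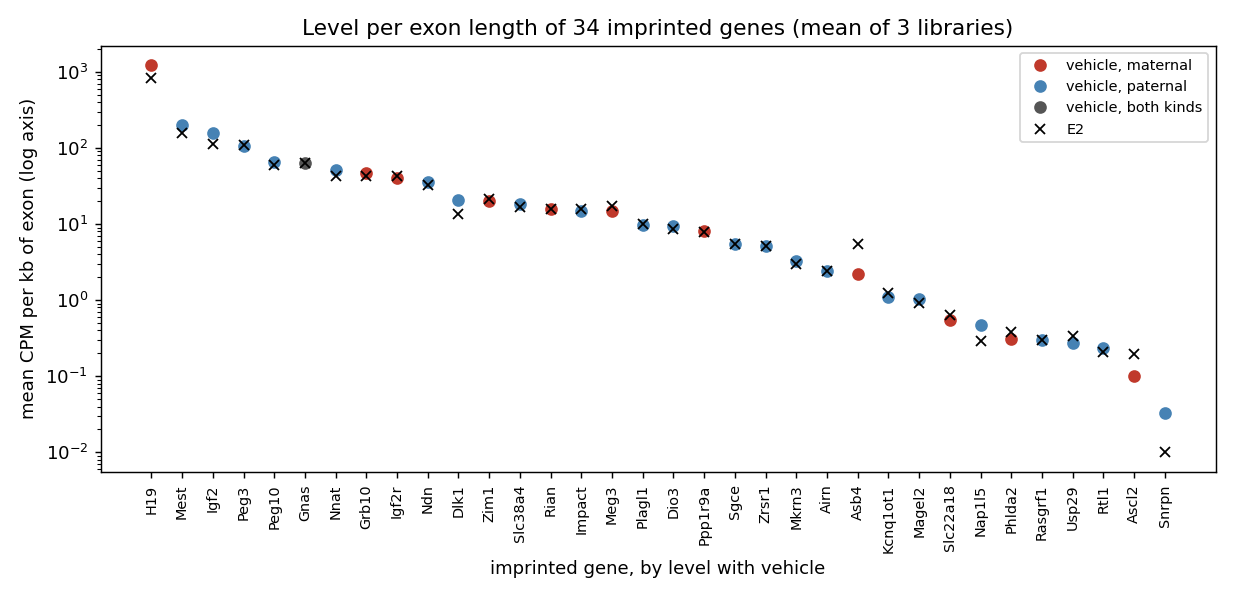
Mean level of the 34 imprinted genes in CPM per kb of exon (log axis) with vehicle (circles, coloured by parental allele) and with E2 (crosses), each the mean of 3 libraries, in the order of the vehicle level. H19 stood highest at 1219 with vehicle and 833 with E2, and Asb4 stood at 2.21 with vehicle and 5.50 with E2. Ascl2 and Snrpn, at the right, had too few counts to test.

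The comparison of E2 with vehicle asks how oestrogen changes transcripts of the fetal ovary. H19 and Igf2, the neighbours on chromosome 7, both fell, by 1.46-fold and 1.42-fold, and so did Dlk1 (1.52-fold) and Mest (1.28-fold). Asb4, which encodes a substrate-binding subunit of a ubiquitin ligase, rose 2.49-fold, and the non-coding RNA Meg3 rose 1.15-fold. Of the 32 members with enough counts to test (Snrpn and Ascl2 had too few), 8 rose, 9 fell and 15 did not pass, which is 53.1% called against 32.3% of all 16360 genes tested (15.8% higher and 16.5% lower) (edgeR quasi-likelihood test, adjusted p under 0.05). The members are abundant genes, with a median level of 83.0 CPM against 24.0 over all genes tested, and abundance makes a small change easier to call. Among genes with a mean of at least 100 CPM, 11 of 14 members (78.6%) and 53.6% of all 2632 genes were called. The median log2 fold change was -0.030 over the members and -0.0026 over all genes.

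By parental allele, 4 of the 10 tested genes expressed from the maternal allele rose and 2 fell with E2 (60.0% called), with a median log2 fold change of 0.082. Among 21 expressed from the paternal allele, 4 rose and 7 fell (52.4% called), with a median of -0.11. Of all genes tested, 15.8% were higher and 16.5% lower (32.3% called), and 53.6% were called among those with a mean of at least 100 CPM. Both sets held genes that rose and genes that fell, and the ranges, from -0.55 to 1.31 and from -0.72 to 0.32 on the log2 scale, overlapped. Leaving out vehicle replicate 2 reduced the members called higher from 8 to 5, and all genes called higher from 2577 to 2322. Once library trends with GC content and length had been taken out by an offset, 4 members were higher and 10 lower, in place of 8 and 9. Over all genes that offset gave 2256 higher and 3000 lower, in place of 2577 and 2701.

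**Figure D2:**
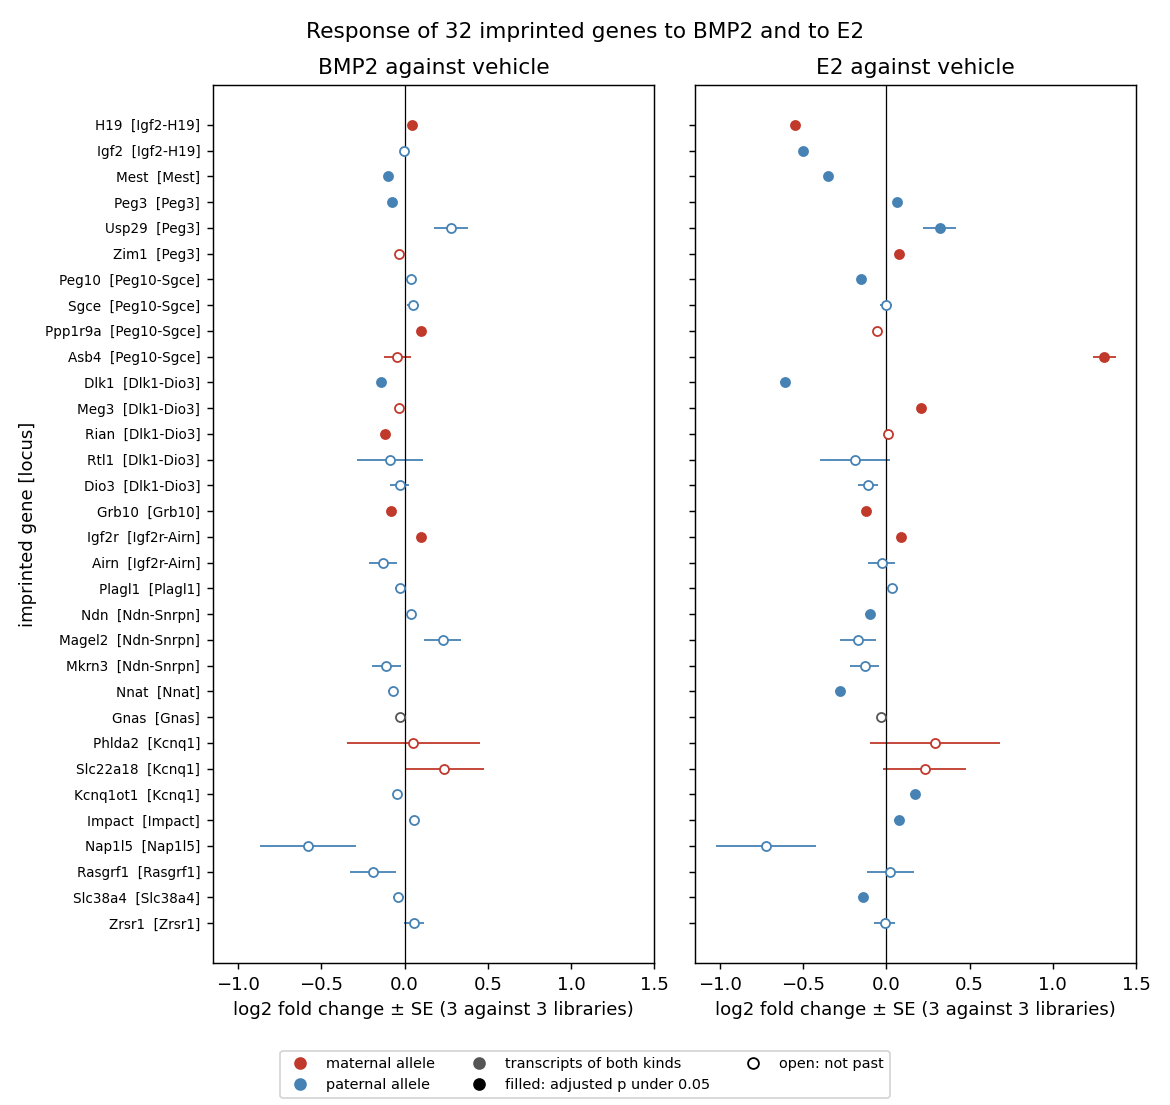
Log2 fold change ± SE of the 32 tested imprinted genes with BMP2 (left) and E2 (right), each against vehicle (3 against 3 libraries), grouped by locus and coloured by parental allele, with filled points for an adjusted p under 0.05. Points in the left panel lie near 0, while in the right panel H19, Igf2, Mest and Dlk1 lie to the left at -0.55, -0.50, -0.35 and -0.61 and Asb4 to the right at 1.31.

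The H19 and Igf2 genes share enhancers, and a methylated control region between them directs these to Igf2 on the paternal and to H19 on the maternal chromosome. In levels, H19 stood at 2998, 3014 and 2983 CPM with vehicle and at 2065, 2055 and 2029 CPM with E2. The groups lay far apart, with every E2 library under every vehicle library. Its log2 fold change was -0.55 ± 0.014 (SE, adjusted p = 1.7e-73). Igf2 had 899, 901 and 932 CPM with vehicle and 643, 642 and 643 CPM with E2, again with no overlap (log2 fold change -0.50 ± 0.017 SE, adjusted p = 1.3e-59). The ratio of H19 to Igf2 counts, which does not depend on how libraries are scaled, was 3.34, 3.34 and 3.20 with vehicle and 3.21, 3.20 and 3.15 with E2. These ranges overlapped, with a difference of -0.046 on the log2 scale (exact permutation test, two-sided, p = 0.300, adjusted p = 0.343), while both genes were lower in every E2 library. In GENCODE vM21, Igf2 shares 62.8% of its exon bases with a readthrough gene on the same strand, Gm49394, whose counts were not analysed here.

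In bulk tissue, fewer cells of a type and less RNA per cell cannot be told apart. Markers of several cell types moved with the fall of H19, Igf2 and Mest. The summed level of 7 stroma markers was 2737 to 2789 CPM with vehicle and 2243 to 2309 CPM with E2, and 3 of them rose and 4 fell. Col3a1 weighs most in this sum, with a mean of 1923 CPM with vehicle and 1539 CPM with E2. All 6 markers of surface epithelium and mesothelium fell, from a sum of 604 to 629 CPM to 415 to 423 CPM. The 6 pregranulosa markers summed to 1704 to 1767 CPM with vehicle and 1518 to 1536 CPM with E2. Of these 6, 1 was called higher and 2 lower. Kitl weighs most in this sum, with means of 978 and 776 CPM, while Wnt4 rose from 110 to 147 CPM. The 6 germ cell markers summed to 1231 to 1292 and 1279 to 1280 CPM, with 3 higher and 1 lower. Endothelial markers had overlapping sums (197 to 203 and 192 to 204 CPM), with 4 of 5 called higher and 1 lower. Smooth muscle and pericyte markers summed to 244 to 246 and 385 to 398 CPM, and of these 4, Myh11 was called. Markers of neurons and glia summed to 110 to 112 and 77.5 to 83.0 CPM (1 of 3 tested called lower), and erythroid markers to 12.4 to 12.7 and 17.7 to 19.1 CPM, with 2 of 4 at 0 in every library. The part of these markers in the result was not tested.

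Mest encodes an enzyme of the α/β-hydrolase family and is read from the paternal allele. It had 769, 776 and 811 CPM with vehicle and 601, 623 and 618 CPM with E2, with no overlap between the groups (log2 fold change -0.35 ± 0.018 SE, adjusted p = 1.5e-40). Copg2, on the opposite strand, overlaps 23.1% of the annotated exon bases of Mest, and the library kit does not mark strand. Copg2 itself did not pass (log2 fold change -0.041, adjusted p = 0.292).

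The Dlk1-Dio3 cluster on chromosome 12 holds the paternally read genes Dlk1, Rtl1 and Dio3 and the maternally read non-coding RNAs Meg3 and Rian. Dlk1 (chr12:109452823-109463336), a membrane protein related to Notch ligands, had 115, 121 and 111 CPM with vehicle and 76.1, 77.8 and 73.8 CPM with E2 (log2 fold change -0.61 ± 0.029 SE, adjusted p = 9.9e-42). Every E2 library thus lay well under every vehicle library. Meg3 (chr12:109541001-109571726), which starts 77664 bases beyond the end of Dlk1, had 273, 270 and 267 CPM with vehicle and 312, 315 and 307 CPM with E2, so its E2 libraries all lay higher (log2 fold change 0.21 ± 0.020 SE, adjusted p = 5.6e-17). The ratio of Meg3 to Dlk1 counts went from 2.36, 2.24 and 2.42 with vehicle to 4.11, 4.05 and 4.16 with E2, a difference of 0.81 on the log2 scale. With 3 against 3 libraries the exact test cannot give a p under 0.100, which it gave here (adjusted p = 0.160 over the 24 ratios tested). Rian, the next RNA of the cluster, kept overlapping groups at 282, 278 and 295 against 285, 291 and 284 CPM (log2 fold change 0.0093 ± 0.021, adjusted p = 0.783), and the ratio of Rian to Meg3 was 0.20 lower on the log2 scale with no overlap (exact p = 0.100). Dio3, which inactivates thyroid hormones, and Rtl1, derived from a retrotransposon, did not pass, with log2 fold changes of -0.11 ± 0.059 and -0.19 ± 0.21.

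Members of the cluster around Peg10 and Sgce on chromosome 6 moved in both directions. Peg10, another gene of retrotransposon origin that is read from the paternal allele, fell from 432, 426 and 447 CPM to 390, 390 and 396 CPM (log2 fold change -0.15 ± 0.019 SE, adjusted p = 1.8e-11). Sgce, for a sarcoglycan, begins 98 bases away on the opposite strand and had the same mean of 58.7 CPM in both groups, with a log2 fold change of 0.00016 (95% interval -0.068 to 0.069). The ratio of Peg10 to Sgce was 0.15 lower on the log2 scale, with no overlap (exact p = 0.100, adjusted p = 0.160). Asb4 (chr6:5383386-5433022), which is read from the maternal allele, had 8.48, 8.27 and 9.33 CPM with vehicle and 22.9, 21.3 and 20.7 CPM with E2. It had the highest fold change among the members tested (log2 fold change 1.31 ± 0.069 SE, adjusted p = 2.9e-38), on 255 to 302 counts with vehicle and 656 to 694 with E2. Ppp1r9a, the gene of neurabin, stood at 119, 117 and 118 against 114, 111 and 116 CPM, a difference that did not pass (adjusted p = 0.0975) but did with the GC and length offset (log2 fold change -0.097, adjusted p = 6.4e-04).

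**Figure D3:**
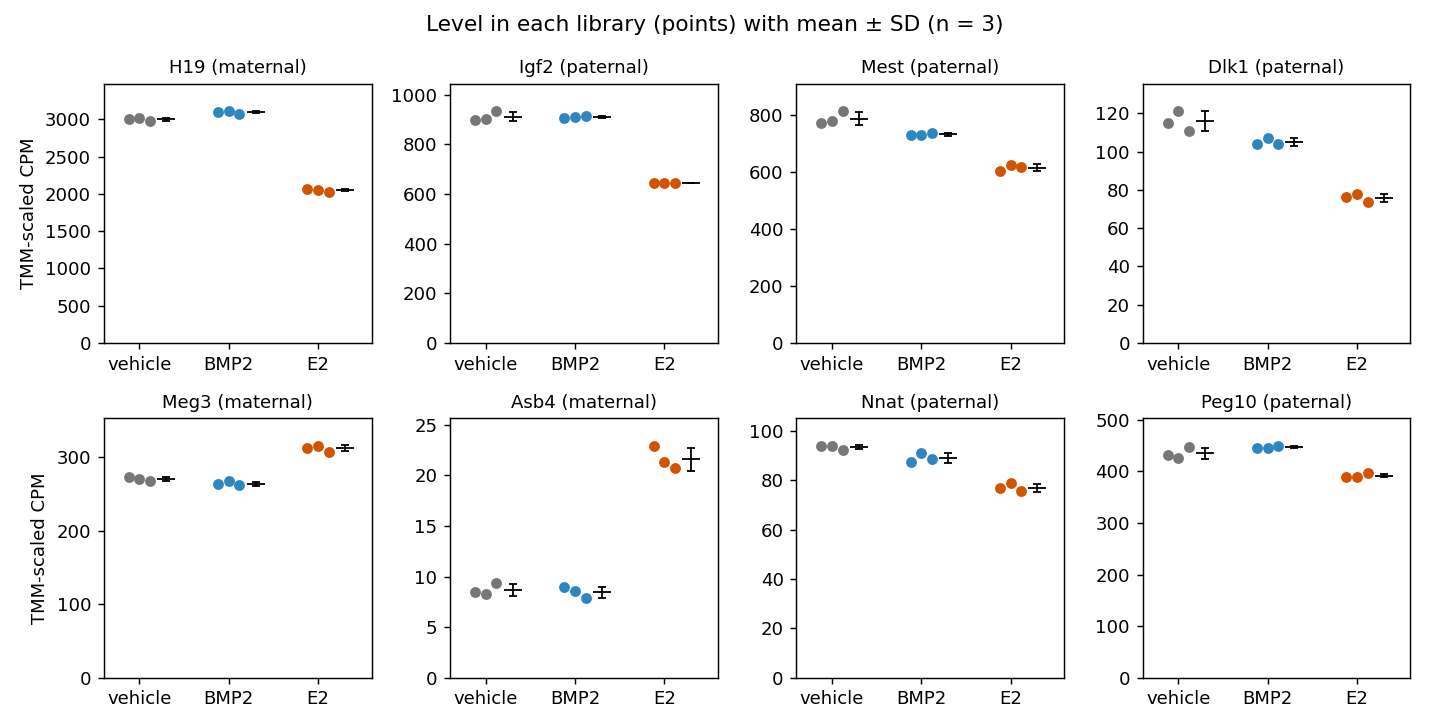
TMM-scaled CPM of 8 imprinted genes in each of 9 libraries (points) with the mean ± SD of each group (n = 3), on axes that start at 0. H19, Igf2, Mest, Dlk1, Nnat and Peg10 are lowest in the 3 E2 libraries, and Meg3 and Asb4 are highest there.

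Small rises ran through the Peg3 cluster. Peg3, a zinc finger gene read from the paternal allele, had 1391, 1411 and 1378 CPM with vehicle and 1463, 1452 and 1464 CPM with E2 (log2 fold change 0.067 ± 0.015 SE, adjusted p = 1.9e-04). Usp29, of the deubiquitinase family, starts 146 bases from Peg3 and runs the other way. It stood at 5.06, 4.31 and 5.32 against 6.53, 5.78 and 6.13 CPM (log2 fold change 0.32 ± 0.10, adjusted p = 0.00954). Zim1, a zinc finger gene read from the maternal allele, had 165, 159 and 164 against 174, 167 and 173 CPM, with a log2 fold change of 0.076 ± 0.023 (adjusted p = 0.00657). The ratio of Zim1 to Peg3 differed by 0.0092 on the log2 scale (exact p = 0.900) and by -0.017 without vehicle replicate 2. Of these calls, those of Peg3 and Zim1 were lost with the GC and length offset (adjusted p = 0.101 and 0.161). Those of Usp29 and Zim1 were lost without vehicle replicate 2 (0.0968 and 0.0618), and that of Usp29 also without E2 replicate 1 (0.0586).

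Igf2r, whose product carries IGF2 to lysosomes, rose from 373, 371 and 365 to 386, 398 and 395 CPM with E2 (log2 fold change 0.089 ± 0.019, adjusted p = 7.9e-05). Airn, the RNA that silences the paternal copy of Igf2r, overlapped between the groups and did not pass (log2 fold change -0.028 ± 0.083, adjusted p = 0.840). Grb10, the adaptor, fell from 419, 418 and 432 to 396, 386 and 383 CPM (log2 fold change -0.12 ± 0.019, adjusted p = 3.4e-08). Kcnq1ot1, the RNA that silences its neighbours on the paternal chromosome, was higher with E2 at 116, 115 and 117 against 102, 103 and 105 CPM (log2 fold change 0.17 ± 0.027, adjusted p = 7.0e-08). With the GC and length offset that call was lost (log2 fold change 0.044, adjusted p = 0.180). Of the other members in its cluster, Slc22a18 and Phlda2 were tested and did not pass, on 25 to 45 and 7 to 18 counts per library, and Ascl2 had 2 to 15 counts and was not tested. Among imprinted genes of that cluster outside the members, Cdkn1c (log2 fold change -0.35, adjusted p = 1.2e-38) and Osbpl5 (-0.18, adjusted p = 2.2e-04) fell, Nap1l4 rose (0.055, adjusted p = 0.0388), and Kcnq1, Cd81 and Tssc4 did not pass.

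Among members outside these clusters, Nnat, which encodes the small membrane protein neuronatin, fell from 93.9, 93.9 and 92.5 CPM to 76.9, 78.8 and 75.6 CPM (log2 fold change -0.28 ± 0.030, adjusted p = 9.2e-15). Slc38a4, an amino acid transporter gene, stood at 81.2, 76.7 and 79.3 against 70.0, 71.0 and 73.9 CPM, with a log2 fold change of -0.14 ± 0.032 (adjusted p = 1.0e-04). Ndn, for the MAGE family protein necdin, had 131, 133 and 127 against 123, 123 and 118 CPM (log2 fold change -0.10 ± 0.026, adjusted p = 9.7e-04). In all 3 of these genes the E2 libraries lay under the vehicle libraries. The call of Impact, a regulator of translation, was the least stable of the 17, at 75.9, 77.8 and 77.4 against 81.9, 78.4 and 83.2 CPM (adjusted p = 0.0479), and 13 of 19 alternative settings lost it. Gnas, which encodes the stimulatory G protein subunit, did not pass at 715, 717 and 714 against 699, 702 and 698 CPM (log2 fold change -0.032 ± 0.017, adjusted p = 0.152), although its groups did not overlap. Plagl1, Zrsr1, Mkrn3, Magel2 and Rasgrf1 did not pass, with log2 fold changes from -0.17 to 0.037. Nap1l5 had 8 to 33 counts per library and a log2 fold change of -0.72 ± 0.30 (adjusted p = 0.0581). Without E2 replicate 2 it passed (-1.44, adjusted p = 0.00149).

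The comparison of BMP2 with vehicle asks the same of a ligand of the TGFβ family. Changes were small. H19 (1.03-fold), Igf2r (1.07-fold) and Ppp1r9a (1.07-fold) rose, and Dlk1 (1.10-fold), Rian (1.09-fold), Mest (1.07-fold), Grb10 (1.06-fold) and Peg3 (1.05-fold) fell, while Igf2 did not pass. Of the 32 tested members, 3 rose, 5 fell and 24 did not pass, which is 25.0% called against 13.7% of all genes (6.84% higher and 6.85% lower). Among those with at least 100 CPM, 7 of 14 members (50.0%) and 28.7% of all such genes were called. No called member differed by over 1.2-fold. Few genes did so in general, with 254 called higher and 213 lower by over 1.2-fold among all 16360. The median log2 fold change was -0.029 over the members and -0.0015 over all genes. All 3 genes that rose, of the 32 tested, are read from the maternal allele (3 of 10 tested, with 2 lower, 50.0% called). Of the 21 genes read from the paternal allele 0 rose and 3 fell (edgeR, adjusted p under 0.05), 14.3% called against 13.7% of all genes. This split rests on few genes and was not stable. The call of H19 was lost in 5 of 19 alternative settings, and Usp29, read from the paternal allele, was called higher in 5.

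The H19 value with BMP2 was 3100, 3106 and 3076 CPM against 2998, 3014 and 2983 CPM with vehicle, with no overlap and a log2 fold change of 0.045 ± 0.014 (adjusted p = 0.0165). It no longer passed when BMP2 replicate 1 (adjusted p = 0.0766), BMP2 replicate 2 (0.0638) or vehicle replicate 1 (0.0544) was left out. Igf2 stood at 906, 908 and 913 CPM, within the vehicle range, and its log2 fold change had a 95% interval of -0.036 to 0.030. Mest was at 730, 728 and 737 CPM, under all vehicle libraries (log2 fold change -0.10 ± 0.018, adjusted p = 2.0e-06). Dlk1 had 104, 107 and 104 CPM, also under all vehicle libraries (log2 fold change -0.14 ± 0.028, adjusted p = 6.7e-05). Rian fell to 261, 266 and 260 CPM (log2 fold change -0.12 ± 0.021, adjusted p = 2.3e-06), while Meg3, at 264, 267 and 262 CPM, did not pass (adjusted p = 0.364). The Dlk1-Dio3 cluster thus showed a lower Dlk1 with either agent, beside a higher Meg3 that passed with E2 and a lower Rian that passed with BMP2.

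Igf2r reached 393, 404 and 390 CPM with BMP2 (log2 fold change 0.10 ± 0.019, adjusted p = 2.8e-05), above all vehicle libraries, and the ratio of Airn to Igf2r was 0.23 lower on the log2 scale, with no overlap (exact p = 0.100, adjusted p = 0.160). Ppp1r9a stood at 130, 124 and 126 CPM (log2 fold change 0.10 ± 0.026, adjusted p = 0.00176) and Grb10 at 404, 397 and 398 CPM (log2 fold change -0.082 ± 0.019, adjusted p = 6.9e-04). Peg3, at 1328, 1332 and 1306 CPM, fell (log2 fold change -0.076 ± 0.015, adjusted p = 7.7e-05). Its neighbour Usp29 had 6.15, 5.67 and 6.07 CPM, above all vehicle libraries, and did not pass (log2 fold change 0.28 ± 0.10, adjusted p = 0.0510). It passed with library sizes alone (0.0424), with a filter at a mean CPM of 1 (0.0465), without vehicle replicate 3 (0.0337), with a replicate block (0.0425) and with the GC and length offset (0.0497). Without vehicle replicate 3, Peg10 passed too (adjusted p = 0.0194), which made 5 members higher in place of 3, beside 1089 in place of 1119 of all genes. Asb4 did not pass with BMP2, at 8.93, 8.53 and 7.84 CPM (log2 fold change -0.044, 95% interval -0.20 to 0.11). Beside these values, all 6 surface epithelium and mesothelium markers fell with BMP2 to a sum of 530 to 542 CPM, while stroma markers summed to 2838 to 2881 CPM (1 higher and 2 lower of 7). Smooth muscle and pericyte markers summed to 220 to 223 CPM (1 of 4 lower), markers of neurons and glia to 133 to 138 CPM (1 of 3 tested higher) and erythroid markers to 14.4 to 16.1 CPM (1 of 2 tested higher), each without overlap with vehicle. Germ cell markers summed to 1262 to 1291 CPM and pregranulosa markers to 1756 to 1763 CPM. Both ranges overlapped those with vehicle, and in each set 3 of 6 were called higher and 1 lower. Endothelial sums (197 to 204 CPM) overlapped too, with 1 of 5 higher. The part of all these markers in the result was not tested.

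Both treatments were compared with the same 3 vehicle libraries, so the direct comparison of BMP2 with E2 was used to test where they differed. Here 10 of 32 members were higher with BMP2, 6 were lower and 16 did not pass, which is 50.0% called against 28.2% of all genes (14.1% higher and 14.0% lower), and 78.6% against 44.6% among genes with at least 100 CPM. H19 was 1.51-fold higher with BMP2 than with E2 (log2 fold change 0.59 ± 0.014, adjusted p = 1.2e-77), Igf2 1.41-fold higher (0.50 ± 0.017) and Dlk1 1.38-fold higher (0.47 ± 0.030). Asb4 was 2.56-fold lower (-1.36 ± 0.069, adjusted p = 6.9e-40) and Meg3 1.18-fold lower (-0.24 ± 0.020). Mest, Peg10, Ppp1r9a, Ndn, Magel2, Nnat and Slc38a4 were also higher with BMP2, and Peg3, Zim1, Rian and Kcnq1ot1 lower. Magel2, a MAGE family gene next to Ndn, had 5.45, 5.52 and 5.84 CPM with BMP2 and 4.42, 4.76 and 3.54 CPM with E2 (1.32-fold, adjusted p = 0.00225). That call was lost without E2 replicate 3 (adjusted p = 0.0711), and the call of Slc38a4 without E2 replicate 1 (0.0511). For Kcnq1ot1 the log2 fold change of -0.21 went to 0.00018 with the GC and length offset (adjusted p = 0.997). Igf2r, which rose with either agent, differed between them by 0.011 on the log2 scale (95% interval -0.027 to 0.049).

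Ratios within a locus were taken for 8 pairs of neighbours in the 3 comparisons. In none of the 24 did the exact permutation test pass, since its smallest p of 0.100 becomes 0.160 after adjustment, so these ratios are given as values. The ratio of Meg3 to Dlk1 had the widest shift, 0.81 with E2 and 0.11 with BMP2 on the log2 scale, both without overlap. Usp29 over Peg3 was higher by 0.27 with E2 (0.17 without vehicle replicate 2) and by 0.37 with BMP2, and Magel2 over Ndn by 0.19 with BMP2. H19 over Igf2 differed by 0.048 with BMP2, without overlap, and by 0.028 without vehicle replicate 3. A pair of Phlda2 and Kcnq1ot1 was left out because Phlda2 fell to 7 counts.

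**Figure D4:**
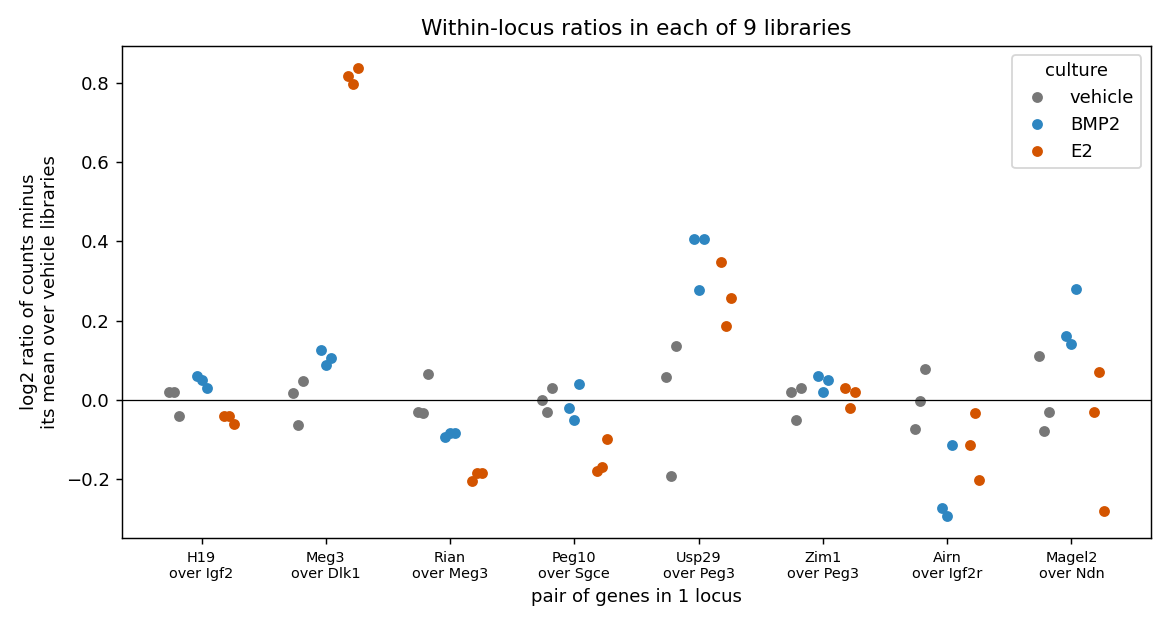
Log2 ratio of counts for 8 pairs of neighbouring imprinted genes in each library, minus its mean over the 3 vehicle libraries. The E2 libraries of Meg3 over Dlk1 stand apart, 0.81 above vehicle on average, whereas the group means of H19 over Igf2 lie 0.048 above vehicle with BMP2 and -0.046 from it with E2.

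The control regions of imprinted genes are guarded in the early embryo by ZFP57, a zinc finger protein that binds the letters TGCCGC when they are methylated. The 250 bases upstream of each start in the RefSeq promoter table (GRCm38.p6) were searched for TGCCGC on both strands. The table held 46 starts of 29 members, and 6 starts of 5 members (Mest, Meg3, Plagl1, Zim1 and Nap1l5) held the letters. That is 13% of the starts of members and 8.68% of all 32851 starts in the table, so a match in this window was not rare among other genes. The windows of Mest, which fell with E2, and of Meg3, which rose, are printed with the matches in capitals, all of them on the reverse strand (GCGGCA as printed). The Mest window lies inside the gene model given above, before an internal start, and its matches begin 242 and 67 bases before that start. A Mest start just downstream in the table holds the same matches. The Meg3 match begins 190 bases before the Meg3 start.
Mest (chr6:30737800-30738049, plus strand): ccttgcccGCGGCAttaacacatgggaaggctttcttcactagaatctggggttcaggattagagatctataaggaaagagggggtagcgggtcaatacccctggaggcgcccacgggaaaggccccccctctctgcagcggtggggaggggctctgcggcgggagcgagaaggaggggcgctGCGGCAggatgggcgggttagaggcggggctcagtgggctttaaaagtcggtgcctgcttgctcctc
Meg3 (chr12:109540746-109540995, plus strand): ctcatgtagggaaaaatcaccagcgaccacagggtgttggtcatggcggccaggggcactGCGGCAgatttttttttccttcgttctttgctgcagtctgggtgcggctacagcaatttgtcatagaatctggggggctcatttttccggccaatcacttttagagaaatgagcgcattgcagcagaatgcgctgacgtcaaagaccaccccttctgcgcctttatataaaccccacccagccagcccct

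Imprinted genes beyond the members were counted from a separate list of 34, of which 30 were tested. With E2, 7 rose, 4 fell and 19 did not pass (36.7% called against 32.3% of all genes, median log2 fold change 0.011). Cdkn1c, the cell cycle inhibitor, which is read from the maternal allele beside Kcnq1ot1, fell from 654 ± 12.3 to 514 ± 14.2 CPM (SD, n = 3, log2 fold change -0.35 ± 0.018 SE, edgeR adjusted p = 1.2e-38). Pon3, of the paraoxonase family, rose 1.31-fold (adjusted p = 1.7e-07), Ampd3, an AMP deaminase, 1.24-fold (8.8e-04), and Ddc, the decarboxylase that makes dopamine, fell 1.28-fold (0.0352). With BMP2, 2 rose, 2 fell and 26 did not pass (13.3% called against 13.7%). Gatm, an enzyme of creatine synthesis, rose 1.15-fold (adjusted p = 6.4e-14), Zdbf2 1.06-fold (0.0183), and Ddc and Commd1 fell 1.42-fold (0.00573) and 1.10-fold (0.00208). Commd1 lies across from Zrsr1, a member that did not pass, and covers 9.17% of its exon bases on the opposite strand.

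Genes that set or keep imprints were counted from a list of 18, of which 17 were tested. With E2, 5 rose, 2 fell and 10 did not pass (41.2% called against 32.3% of all genes), and with BMP2, 3 rose, 1 fell and 13 did not pass (23.5% against 13.7%). Several genes of this list, such as Trim28 and Dnmt3a, had a mean above 100 CPM. At or above that level 53.6% of all genes were called with E2 and 28.7% with BMP2. Kdm1b, a histone demethylase that oocytes need to set some maternal imprints, was at 61.3 ± 1.99 CPM with vehicle, 76.3 ± 1.28 with E2 and 74.4 ± 0.555 with BMP2 (log2 fold changes 0.31 ± 0.033 and 0.28 ± 0.032, adjusted p = 1.3e-15 and 3.1e-12). Dppa3, which protects methylation in the zygote, rose with both agents, to 12.9 ± 1.24 and 12.2 ± 0.459 CPM from 6.90 ± 0.365. These 2 comparisons share the vehicle libraries. Among the 6 germ cell markers, 3 rose and 1 fell with each agent, and their part in the rises of Kdm1b and Dppa3 was not tested. Tet2, for an enzyme that oxidises methylated cytosine, rose with E2 (log2 fold change 0.11 ± 0.033) and Hells, a chromatin remodeller, fell (-0.071 ± 0.021), while Tet3 rose (0.13 ± 0.028) and Zfp57 fell (-0.10 ± 0.037, adjusted p = 0.0475) with BMP2. Dnmt1, which copies methylation at replication, did not pass with either agent, and Dnmt3l, which works with DNMT3A in growing oocytes, was at 0.0710 CPM with vehicle and too low to test.

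Of 12 genes for partners of IGF2, 4 rose and 2 fell with E2 (50.0% called against 32.3% of all genes) and 2 rose and 3 fell with BMP2 (41.7% against 13.7%). Several of these partners, such as Igfbp5 and Igfbp4, had a mean above 100 CPM. Among all genes with at least 100 CPM, 53.6% were called with E2 and 28.7% with BMP2. Igfbp5, for an IGF binding protein, rose 1.54-fold with E2 (log2 fold change 0.62 ± 0.015, adjusted p = 5.1e-78), and Igfbp4 fell to 242 ± 4.93 from 319 ± 4.53 CPM (-0.40 ± 0.021, adjusted p = 4.0e-38).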

How the data were processed

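Read counts per gene were deposited by the authors as whole numbers, 1 table for each of 9 libraries. Per the submitters' processing notes, TopHat2, HTSeq and DESeq2 were used with the build mm10; the sources used here do not give versions, annotation or strand setting. The TruSeq v2 kit named in the labels' protocols does not mark strand. Reads that the tables assign to no gene (38.2% to 39.7% of a library) did not enter library sizes.

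For testing, edgeR 4.0.16 was run under R 4.3.3. Genes passing filterByExpr (16360) were scaled by TMM and fitted in 1 robust quasi-likelihood model over all 9 libraries (6 residual degrees of freedom), and p-values were adjusted by the Benjamini-Hochberg method over all genes tested. CPM are TMM-scaled, and each SE is the absolute log2 fold change over the root of edgeR's F statistic. Ratios within a locus used pairs with at least 10 counts in every library. At these depths, changes well under 1.2-fold could be called in genes above 100 CPM. The code was tested on simulated data. Exon lengths and overlaps are from GENCODE vM21 (GRCm38), which matched 98.4% of symbols.

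Members were named by symbol, and members and lists were chosen with earlier results of these data known. Values per library are given for members called in any comparison or with a mean of at least 100 CPM, and from each other list at most 4 called genes per comparison, ranked by absolute log2 fold change with mean CPM no lower than 1. Nespas, Myh11, Col3a1, Kitl, Wnt4, Osbpl5 and Nap1l4 were named after their values were seen. Alternatives were DESeq2 1.42.0, other scalings, filters and thresholds, a replicate block, leaving out each library, glmTreat and a GC and length offset (splines with 5 degrees of freedom).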

Additional observations from a re-analysis of the deposited data

Results flagged for a closer look

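For 2 members BMP2 and E2 moved the level in opposite directions, each past the threshold against vehicle, and the direct comparison of BMP2 with E2 (edgeR quasi-likelihood test) passed as well. H19 rose slightly with BMP2 and fell with E2, a difference of 0.59 on the log2 scale (adjusted p = 1.2e-77), and all 3 BMP2 libraries lay above all 3 E2 libraries. Nearly all of that difference came from E2 (-0.55), and the rise with BMP2 (0.045) was lost when BMP2 replicate 1, BMP2 replicate 2 or vehicle replicate 1 was left out. Peg3 fell with BMP2 (-0.076) and rose with E2 (0.067), a difference of -0.14 (adjusted p = 1.0e-14), and the rise with E2 was lost with the GC and length offset (log2 fold change 0.028, adjusted p = 0.101).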

How the results depend on the processing

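Over 19 alternative settings, 1746 of 1818 values for single members gave the same call as the main test; values that did not pass could change sign, as that of Igf2 with BMP2 did (-0.020 to 0.014). Testing for changes beyond 1.2-fold (glmTreat), 1 member was higher and 4 lower with E2, beside 531 and 346 of all 16360 genes. With BMP2, 0 members were higher and 0 lower (from 3 and 5 in the main test, and 3 and 5 with DESeq2), beside 43 and 27 of all genes. DESeq2 called 743 of all genes higher and 698 lower with BMP2. In BMP2 against E2, 3 members were higher and 1 lower, beside 296 and 488 of all genes. This test asks for a larger change. The GC and length offset left 4 members higher with E2 in place of 8, beside 2256 in place of 2577 of all genes. It turned the log2 fold change of Kcnq1ot1 between BMP2 and E2 to 0.00018, and the cause was not tested. Leaving out 1 library at a time, members higher and lower ranged from 5 to 8 and 9 to 10 with E2, from 2 to 5 and 5 to 5 with BMP2, and from 9 to 10 and 6 to 8 in BMP2 against E2. Over all genes tested (16497 to 16515), higher and lower ranged from 2218 to 2637 and 2271 to 2679 with E2. These counts ranged from 804 to 1127 and 824 to 1108 with BMP2, and from 1962 to 2398 and 1976 to 2450 in BMP2 against E2. The 5 members higher with E2 came without vehicle replicate 2, where 2322 of all genes were higher. The 5 higher with BMP2 came without vehicle replicate 3, where 1089 of all genes were higher. Leaving out 1 library changed the sign of the within-locus difference for Magel2 over Ndn with E2 (-0.16 to 0.023), Peg10 over Sgce with BMP2 (-0.034 to 0.0087) and Zim1 over Peg3 with E2 (-0.017 to 0.025). Same-numbered libraries of different groups did not deviate together (correlations of -0.031 to 0.027), so the numbers were not taken to pair libraries. With the replicate block, 4 members were higher and 5 lower with BMP2, 8 and 10 with E2, and 10 and 6 in BMP2 against E2. Of all 16360 genes, the block gave 1252 and 1260 with BMP2, 2705 and 2807 with E2, and 2442 and 2433 in BMP2 against E2. The log2 fold changes of Nap1l5, Slc22a18 and Phlda2 had SEs of 0.24 to 0.40, so small changes in them were not detectable at this depth.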

Other observations

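Nespas, the antisense RNA of the Gnas locus, covers 8.83% of the annotated exon bases of Gnas. It had 60 to 112 counts per library and was lower with both E2 (log2 fold change -0.57, adjusted p = 0.00197) and BMP2 (-0.59, adjusted p = 0.00329, edgeR quasi-likelihood test), in comparisons that share the vehicle libraries. Gnas itself did not pass in either comparison (log2 fold changes -0.032 and -0.026), and with the GC and length offset it passed with BMP2 (-0.043, adjusted p = 0.0312). Without strand information, reads on the shared bases cannot be assigned to either gene.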
